A study of Rattus norvegicus with 10 samples.

Results

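The tumour necrosis factor (TNF) receptor family was examined through 9 members, Tnfrsf1a, Tnfrsf21, Tnfrsf25, Tnfrsf4, Tnfrsf1b, Tnfrsf14, Tnfrsf12a, Tnfrsf19 and Tnfrsf11b, each taken as the row of that gene symbol among 17168 rows of the deposited count table. Left hippocampal RNA was sequenced from 5 male TgF344-AD rats given chow with ibudilast, a phosphodiesterase inhibitor, from 5 months of age for 6 months, and from 5 untreated male TgF344-AD rats on plain rodent chow. All 10 rats were 11 months old at dissection and all carry the human transgenes of this Alzheimer's disease model, so no rat without them served as a control. Per the series' design text, the frozen tissue of the ibudilast rats was stored in RNAlater-ICE, which it does not say of the untreated rats, so ibudilast and storage cannot be told apart in any comparison here. The members were chosen by name after log2 fold changes of this same contrast had been seen, Tnfrsf4 and Tnfrsf25 being among its largest rises. Their fold changes and calls are therefore given as descriptions, without p-values.

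TNF family receptors are membrane proteins whose cysteine-rich outer parts bind trimeric ligands. A first class carries a death domain inside the cell, which recruits adaptors such as TRADD and FADD and can lead either to NF-kB activation or to cell death. A second class binds TRAF adaptors directly, and a few members are secreted decoys that capture ligand. In brain, TNF signalling is studied in microglial and endothelial inflammation, in synaptic scaling and in axon loss.

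The start regions of 4 members are shown, those of the pair with the largest rises and those of the pair of falling members with the most counts, because these are the sequences in front of the transcripts described next. Each holds 250 bases before and 50 bases after the annotated start in RefSeq (GRCr8), written 5′ to 3′ on the gene's strand, with capitals marking a GC box (GGGCGG on either strand).
Tnfrsf25 (chr5:167904536-167904835, plus strand): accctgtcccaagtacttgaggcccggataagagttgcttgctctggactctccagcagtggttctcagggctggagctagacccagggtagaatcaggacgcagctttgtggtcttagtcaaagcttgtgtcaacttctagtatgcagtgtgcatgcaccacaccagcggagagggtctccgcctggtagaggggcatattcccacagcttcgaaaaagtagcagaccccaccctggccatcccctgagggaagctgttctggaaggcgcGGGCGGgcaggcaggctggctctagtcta
Tnfrsf4 (chr5:171888884-171889183, plus strand): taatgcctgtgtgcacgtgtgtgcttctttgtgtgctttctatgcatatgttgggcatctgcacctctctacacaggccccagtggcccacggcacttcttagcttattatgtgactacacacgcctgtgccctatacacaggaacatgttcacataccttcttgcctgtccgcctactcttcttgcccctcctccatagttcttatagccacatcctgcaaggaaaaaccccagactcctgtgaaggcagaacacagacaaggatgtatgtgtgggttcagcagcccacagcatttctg
Tnfrsf19 (chr15:39334517-39334816, minus strand): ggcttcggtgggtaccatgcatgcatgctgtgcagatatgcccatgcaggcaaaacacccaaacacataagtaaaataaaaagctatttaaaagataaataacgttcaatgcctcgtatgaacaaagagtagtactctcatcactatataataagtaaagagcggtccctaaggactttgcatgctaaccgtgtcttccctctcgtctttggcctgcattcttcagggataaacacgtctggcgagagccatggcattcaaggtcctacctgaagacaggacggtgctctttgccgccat
Tnfrsf21 (chr9:25451274-25451573, minus strand): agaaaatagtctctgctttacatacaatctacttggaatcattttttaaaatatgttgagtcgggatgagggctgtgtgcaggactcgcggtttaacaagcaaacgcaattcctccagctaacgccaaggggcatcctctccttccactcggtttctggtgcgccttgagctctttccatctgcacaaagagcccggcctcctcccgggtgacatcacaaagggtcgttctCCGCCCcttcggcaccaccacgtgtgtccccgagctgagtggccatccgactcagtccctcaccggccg
Start regions were found for 7 of the 9 members, all but Tnfrsf14 and Tnfrsf11b. A GC box stood in 4 of these 7, those of Tnfrsf25, Tnfrsf21, Tnfrsf1b and Tnfrsf12a, against 33.1% of 33469 rat start regions of the same length. The core of the cAMP response element (TGACG, either strand) was in 0 of the 7 and in 21.2% of all regions. The full element (TGACGTCA), which contains that core, was in 0 of the 7 and in 1.83% of all regions. The NF-kB consensus was also in 0 of the 7, and in 4.18% of all regions. These are matches of letters in short windows and say nothing of binding.

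Single libraries held from 14806807 to 18533520 counts. Marker genes of neurons, astrocytes, oligodendrocytes, microglia and endothelium were measured in every library. The summed neuron markers were at 2022 to 4499 CPM (counts relative to the library total over tested genes, scaled between libraries by TMM factors) in ibudilast rats and 6894 to 8400 CPM in untreated rats, while the oligodendrocyte markers were at 15759 to 18777 CPM and 7766 to 15121 CPM. Choroid plexus markers summed to 7204 CPM in ibudilast replicate 1 and 7872 CPM in untreated replicate 2, against 23.98 to 351 CPM in the other 8 rats. Ibudilast replicate 4 had the lowest neuron sum of all and the highest meningeal and fibroblast sum (1542 CPM). Its neuron markers did not all go the same way. Slc17a7 and Camk2a had 3993 and 3597 counts, against 19087 to 25501 and 8989 to 12813 in the other ibudilast rats. Gad1 and Gad2, at 2477 and 510 counts, were the highest of the ibudilast group. Untreated replicate 3 had the highest microglia and endothelial sums (1022 and 675 CPM). In bulk RNA, fewer cells of a type and less RNA per cell cannot be told apart.

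Of the 9 members, 3 were higher with ibudilast (Tnfrsf4, Tnfrsf25 and Tnfrsf14), 3 were lower (Tnfrsf19, Tnfrsf21 and Tnfrsf11b) and 3 did not pass (Tnfrsf1a, Tnfrsf1b and Tnfrsf12a), by edgeR's quasi-likelihood test at an adjusted p under 0.05 over all genes. Across the 12355 genes tested, 47.1% passed, 24.3% higher and 22.8% lower. The groups did not overlap for 4 members (Tnfrsf4, Tnfrsf25, Tnfrsf14 and Tnfrsf19), against 33.4% of all genes. The median log2 fold change was 0.06 over the members and 0.02 over all genes tested. All 9 passed the filter on low counts, Tnfrsf4 only through its counts in ibudilast rats.

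**Figure D1:**
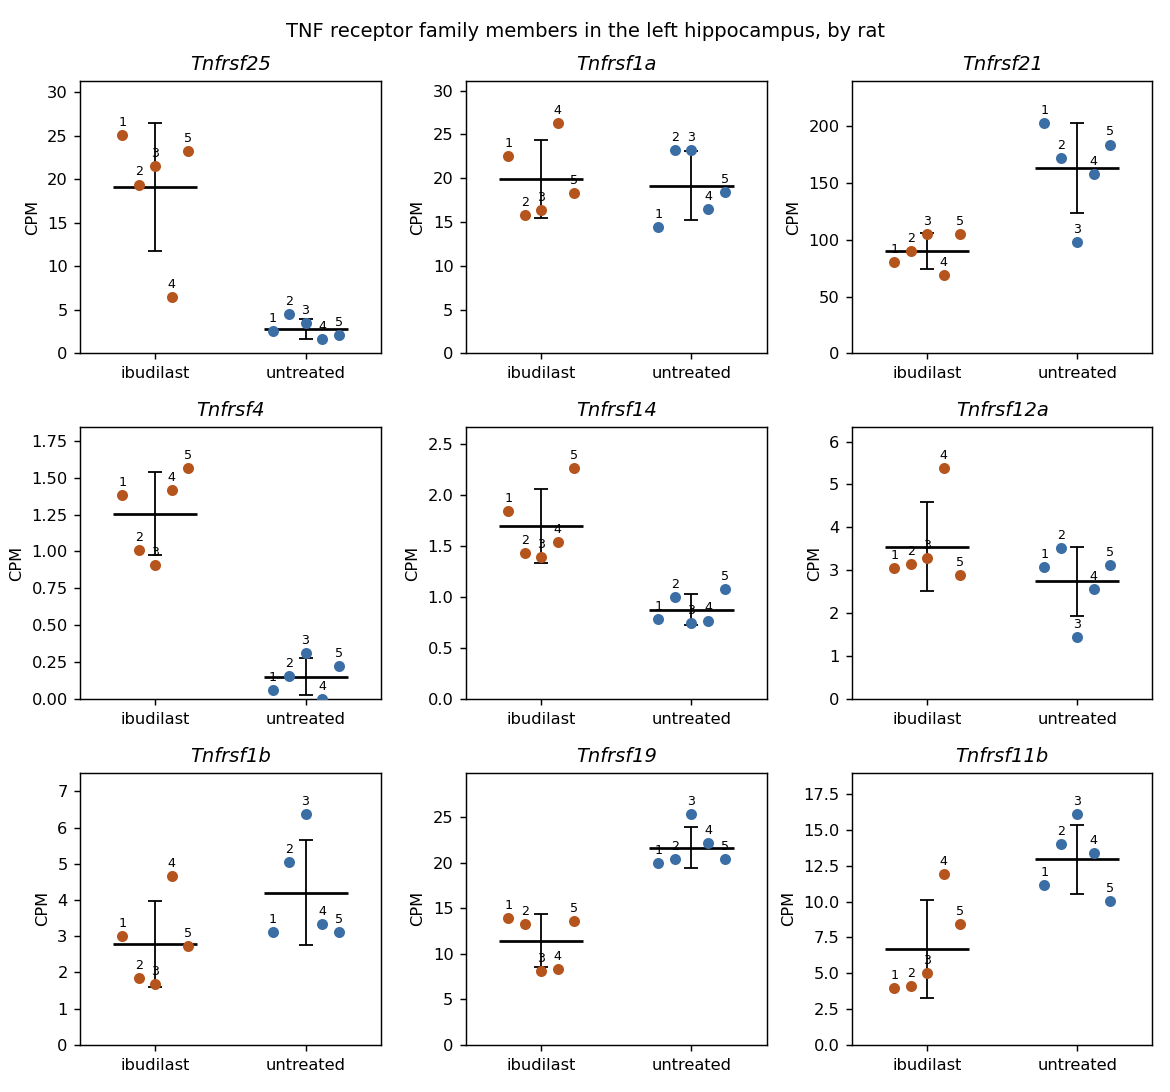
Level of each of the 9 members in CPM by rat (y axes, each panel on its own scale from 0), with ibudilast rats on the left and untreated rats on the right. Points carry replicate numbers, and lines and bars give the mean ± SD (n = 5). Groups stand apart for Tnfrsf25, Tnfrsf4, Tnfrsf14 and Tnfrsf19.

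Among receptors with a death domain, Tnfrsf25 rose, Tnfrsf21 fell and Tnfrsf1a did not pass. Tnfrsf25 encodes death receptor 3, the receptor of the ligand TL1A, best known on T cells. Its level was 25.1, 19.4, 21.5, 6.44 and 23.2 CPM in ibudilast replicates 1 to 5, against 2.52, 4.53, 3.43, 1.60 and 2.103 CPM in untreated replicates 1 to 5. The counts behind these values were 109 to 436 in ibudilast rats and 25 to 86 in untreated rats. The groups did not overlap, and ibudilast replicate 4 lay well below the other 4 ibudilast rats. The log2 fold change was 2.74 ± 0.39 (SE), from 19.1 ± 7.40 CPM with ibudilast and 2.84 ± 1.16 CPM without (SD, n = 5 each). Without ibudilast replicate 4 it was 2.95, and without ibudilast replicates 1 and 4 and untreated replicates 2 and 3, the libraries that stand apart by marker sums, it was 3.35.

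Tnfrsf21 encodes death receptor 6, which in mice takes part in axon pruning. It was at 80.4, 90.3, 105, 69.3 and 105 CPM in ibudilast replicates 1 to 5, against 203, 172, 98.3, 158 and 184 CPM in untreated replicates 1 to 5. Untreated replicate 3 alone lay among the ibudilast rats, so the groups overlapped at that rat. The means were 90.0 ± 15.6 CPM with ibudilast and 163 ± 39.8 CPM in untreated rats, a log2 fold change of −0.86 ± 0.19, and −1.02 without untreated replicate 3. The summed neuron markers given above also stood lower with ibudilast, with 6 of 8 lower and 0 higher, and their part in this fall was not tested.

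Tnfrsf1a encodes TNF receptor 1, the main TNF receptor of most cells. Its level was 22.6, 15.8, 16.4, 26.3 and 18.3 CPM in ibudilast replicates 1 to 5, against 14.4, 23.2, 23.2, 16.5 and 18.5 CPM in untreated replicates 1 to 5. The ranges lay over each other, and the log2 fold change was 0.06 ± 0.18. The sign of this value turned without untreated replicate 1 (−0.03) or 4 (−0.0033) and without ibudilast replicate 4 (−0.09).

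Among receptors that signal through TRAF adaptors, the lymphocyte receptors Tnfrsf4 and Tnfrsf14 rose and Tnfrsf19 fell. Tnfrsf4 encodes OX40, a costimulatory receptor of activated T cells. Its expected counts were 24, 17, 13, 24 and 27 in ibudilast replicates 1 to 5, against 1, 3, 5, 0 and 4 in untreated replicates 1 to 5. The lowest ibudilast count, 13, has an exact 95% Poisson interval of 6.92 to 22.2 counts, and the highest untreated count, 5, one of 1.62 to 11.7 counts (both cover counting error only). For the 0 in untreated replicate 4 the floor is 3 counts, a one-sided limit, or 0.192 CPM. On the CPM scale the means were 1.26 ± 0.282 with ibudilast and 0.152 ± 0.125 without, and the log2 fold change was 2.98 ± 0.49. All untreated rats had 5 counts or fewer, and on a log2 scale with a pseudocount of 1 the fold change was 0.94.

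The summed T cell markers overlapped between the groups. The sum of all 14 ran from 21.97 to 31.4 CPM in ibudilast rats and from 18.7 to 29.4 CPM in untreated rats, and 7 markers were tested, with 1 higher and 0 lower. Cd4, which rat microglia and macrophages also express, took 4.74 to 16.4 CPM of this in ibudilast rats and 8.64 to 17.6 CPM in untreated rats. The other 13 markers summed to 13.6, 14.9, 17.2, 15.002 and 14.8 CPM in ibudilast replicates 1 to 5, against 7.69, 9.11, 11.8, 8.07 and 14.8 CPM in untreated replicates 1 to 5, a split made after the values were seen. Of the 5 untreated rats, 4 lay below every ibudilast rat in this sum. It includes Cd247, the only one of the 7 tested markers that passed. The sum was not taken without Cd247, so this order cannot be read as a shift of the other markers. Zap70, also in the sum, overlapped between the groups, at 46 to 110 counts in ibudilast rats and 53 to 106 counts in untreated rats. None of the 14 was at 0 in all rats, but Cd3d, a subunit of the T cell receptor complex, had 0, 0, 0, 6 and 1 counts in ibudilast replicates 1 to 5 and 0, 2, 0, 0 and 0 counts in untreated replicates 1 to 5. Cd3g, another subunit, had 0, 0, 0, 9 and 0 counts in ibudilast replicates 1 to 5 and 0, 2, 0, 1 and 2 counts in untreated replicates 1 to 5. The marker that rose was Cd247, a signalling chain of the same complex, with 65, 57, 46, 37 and 50 counts in ibudilast replicates 1 to 5 and 5, 7, 17, 8 and 18 counts in untreated replicates 1 to 5. The part of these markers in the rises of Tnfrsf4 and Tnfrsf25 was not tested. Of B cell markers, 4 were in the table, and they summed to at most 0.921 CPM in ibudilast rats and 0.513 CPM in untreated rats.

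Tnfrsf14 encodes HVEM, a receptor of LIGHT and lymphotoxin alpha that also binds BTLA. It was at 1.84, 1.43, 1.39, 1.54 and 2.26 CPM in ibudilast replicates 1 to 5, against 0.781, 1.00, 0.749, 0.769 and 1.08 CPM in untreated replicates 1 to 5. The groups did not overlap, on counts of 19.6 to 39.3 in ibudilast rats and 11.8 to 19.0 in untreated rats. The log2 fold change was 0.94 ± 0.22.

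Tnfrsf19 encodes TROY, a receptor of neural progenitors and astroglia that can act with the Nogo receptor in place of p75. It was at 13.9, 13.3, 8.09, 8.39 and 13.7 CPM in ibudilast replicates 1 to 5, against 20.02, 20.4, 25.3, 22.2 and 20.4 CPM in untreated replicates 1 to 5. Every ibudilast rat lay below every untreated rat, and ibudilast replicates 3 and 4 lay below the rest of their group. The means were 11.5 ± 2.96 CPM and 21.7 ± 2.23 CPM, a log2 fold change of −0.92 ± 0.17. Astrocyte markers summed to 5899 to 8003 CPM in ibudilast rats and 6149 to 9340 CPM in untreated rats, with 4 of 7 lower and 0 higher, and oligodendrocyte precursor markers to 332 to 479 CPM and 408 to 594 CPM, with 2 of 5 lower and 0 higher. The part of these in the fall of Tnfrsf19 was not tested.

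Tnfrsf1b encodes TNF receptor 2, which has no death domain and in brain is known from microglia and endothelium. It was at 2.99, 1.85, 1.67, 4.67 and 2.72 CPM in ibudilast replicates 1 to 5, against 3.13, 5.05, 6.37, 3.33 and 3.13 CPM in untreated replicates 1 to 5. Ibudilast replicate 4 lay inside the untreated range and the other 4 ibudilast rats lay below it. The log2 fold change was −0.59 ± 0.32 and did not pass, but without ibudilast replicate 4 it was −0.88 and passed. Microglia markers summed to 433 to 519 CPM in ibudilast rats and 546 to 1022 CPM in untreated rats, with 6 of 10 lower and 0 higher. Endothelial and mural markers summed to 199 to 413 CPM and 369 to 675 CPM, also with 6 of 10 lower and 0 higher. Their part in the values of Tnfrsf1b was not tested.

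Tnfrsf12a encodes Fn14, a receptor induced by injury that binds TWEAK. It was at 3.05, 3.15, 3.28, 5.37 and 2.89 CPM in ibudilast replicates 1 to 5, against 3.07, 3.53, 1.44, 2.56 and 3.13 CPM in untreated replicates 1 to 5. Outside ibudilast replicate 4 and untreated replicate 3, the groups lay in the same range. The log2 fold change was 0.37 ± 0.26 and did not pass, and it was 0.0091 without those 2 rats.

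The decoy receptor of the family, Tnfrsf11b, encodes osteoprotegerin, a secreted protein that captures RANKL and TRAIL. It was at 3.97, 4.11, 5.02, 11.9 and 8.45 CPM in ibudilast replicates 1 to 5, against 11.2, 14.1, 16.1, 13.4 and 10.1 CPM in untreated replicates 1 to 5. Ibudilast replicate 4 alone lay inside the untreated range. The means were 6.70 ± 3.44 CPM and 13.0 ± 2.39 CPM, a log2 fold change of −0.95 ± 0.30. This call was lost without ibudilast replicate 1 (−0.81), 2 (−0.82) or 3 (−0.87) and with library size alone (−0.85). Meningeal and fibroblast markers summed to 467, 75.4, 52.0, 1542 and 78.2 CPM in ibudilast replicates 1 to 5 and to 66.5, 1181, 142, 89.1 and 64.6 CPM in untreated replicates 1 to 5, and their part was not tested.

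**Figure D2:**
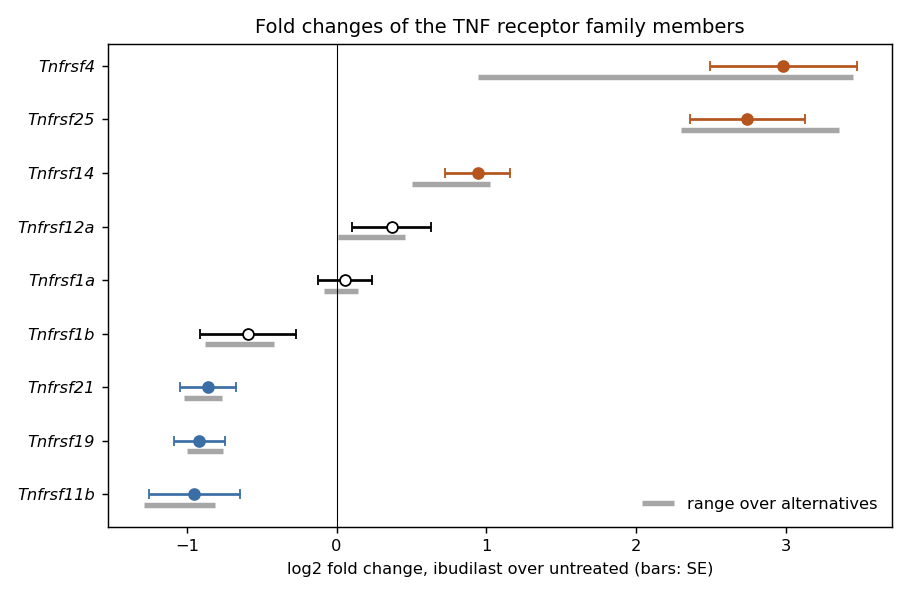
Log2 fold change of each member, ibudilast over untreated (x axis), with its SE as error bars and, as a grey line, the range over the alternative settings. Filled points passed the test and open points did not. The long grey line of Tnfrsf4 reaches down to 0.94, its value on a log2 scale with a pseudocount of 1.

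Both genes with the largest rises lie just downstream, on the same strand, of a far more abundant gene, by the RefSeq annotation of GRCr8 within 5 kb. Plekhg5, a guanine nucleotide exchange factor gene upstream of Tnfrsf25, was at 222, 199, 262, 68.5 and 246 CPM in ibudilast replicates 1 to 5, against 198, 205, 74.9, 141 and 210 CPM in untreated replicates 1 to 5. It did not pass (log2 fold change 0.27 ± 0.36, adjusted p = 0.571 by edgeR's quasi-likelihood test with Benjamini-Hochberg adjustment). Tnfrsf25 therefore stood at 11.3, 9.74, 8.19, 9.40 and 9.42% of the Plekhg5 level in ibudilast replicates 1 to 5 and at 1.28, 2.21, 4.58, 1.13 and 1.00% in untreated replicates 1 to 5. Ibudilast replicate 4, low in both genes, had a ratio like that of the other ibudilast rats. Over the deviations from the group means of all 10 rats, Pearson's r of the pair was 0.593, and Spearman's rho of the within-group ranks was 0.30. Exact permutation tests within groups, two-sided, gave p = 0.114 and p = 0.462 (adjusted 0.199 and 0.578 over 5 pairs of a member and a neighbour). Without the 2 rats farthest from the median of Tnfrsf25, r was −0.099. The groups did not follow the same pattern: ibudilast replicate 4 was the lowest of its group in both genes, whereas untreated replicate 3, the lowest of its group in Plekhg5, was among the higher untreated rats in Tnfrsf25.

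Sdf4, which encodes a calcium-binding protein of the Golgi, lies upstream of Tnfrsf4 and was at 77.6 ± 7.48 CPM in ibudilast rats and 74.0 ± 4.31 CPM in untreated rats (adjusted p = 0.490 by edgeR). Tnfrsf4 was at 1.21 to 2.16% of its level in ibudilast rats and at 0 to 0.383% in untreated rats. Whether reads of the upstream genes enter the counts of the receptors was not tested. Tnfrsf12a has 3 measured neighbours. Thoc6, an mRNA export gene on the same strand, and Hcfc1r1, on the other strand, rose by 0.31 ± 0.08 and 0.50 ± 0.08 on the log2 scale (adjusted p = 0.0117 and 7.40e-04 by edgeR), while Cldn6, a claudin gene, was at or under 0.214 CPM on average and was not tested. Espn, on the strand opposite Tnfrsf25, averaged 0.373 CPM in ibudilast rats and 0.261 CPM in untreated rats, and Scnn1a, beside Tnfrsf1a, 1.46 and 1.37 CPM. The annotation also places an uncharacterised gene over Tnfrsf1b and a long noncoding RNA on the opposite strand over Tnfrsf19, neither with a row of its own in the count table.

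**Figure D3:**
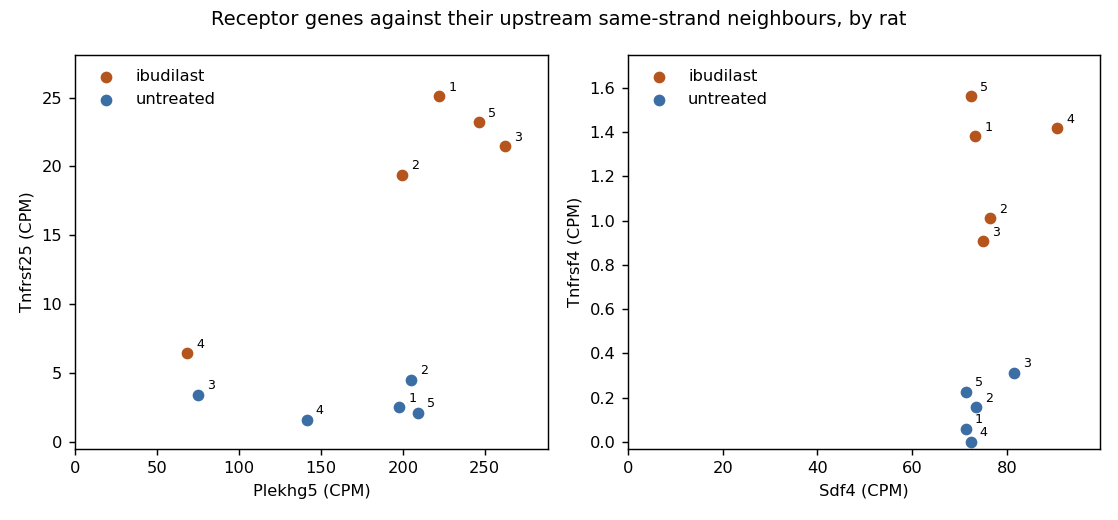
Level of Tnfrsf25 against Plekhg5 (left) and of Tnfrsf4 against Sdf4 (right) by rat, all in CPM, with replicate numbers. At a given level of the upstream neighbour the ibudilast rats lie above the untreated rats, and in the left panel ibudilast replicate 4 and untreated replicate 3 are low in Plekhg5.

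Within groups, Tnfrsf1a and Tnfrsf1b varied together. Over the deviations of log2 CPM from the group means of 10 rats, a measure that holds no difference between the groups, Pearson's r was 0.918 (exact permutation within groups, 14400 arrangements, two-sided, p = 0.00125, adjusted p = 0.0450 over 36 pairs of members). Spearman's rho of the within-group ranks was 0.75 (p = 0.0336 by the same exact permutation, adjusted p = 0.403, which did not pass). Without the 2 rats farthest from the median of Tnfrsf1a, r was 0.870. The rats above their group mean in Tnfrsf1a were untreated replicates 2 and 3 and ibudilast replicates 1 and 4. These are the libraries that stand apart by marker sums, and they were also the highest of their groups in Tnfrsf1b. The part of tissue content in this correlation was not tested. No other pair of members passed by either coefficient. The next, Tnfrsf12a with Tnfrsf19 and Tnfrsf1b with Tnfrsf21, had r of −0.640 and −0.762 (exact permutation, adjusted p = 0.100 for each).

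**Figure D4:**
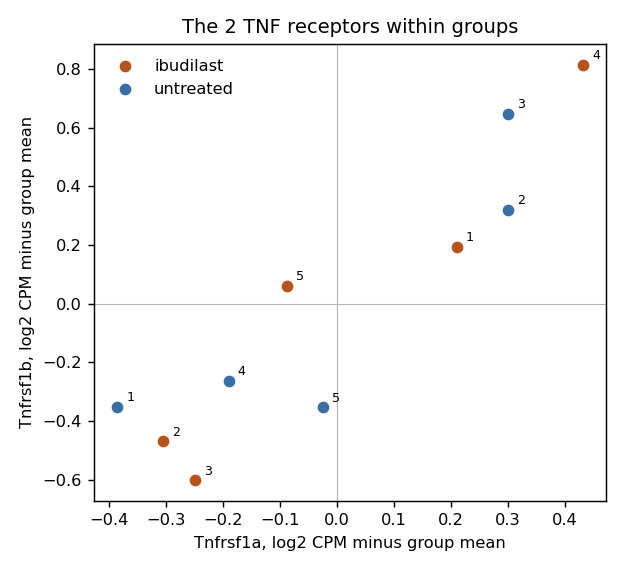
Deviation of each rat's log2 CPM from its group mean for Tnfrsf1a (x axis) and Tnfrsf1b (y axis), with replicate numbers. Ibudilast replicate 4 is highest in both genes, and the 10 rats follow a rising line (r = 0.918).

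The genes most like each member in these within-group deviations were ranked among 11547 or 11548 genes of at least 1 CPM. They are the top of a long ranking over 10 rats, so their correlations are given without p. Tnfrsf1a was closest to Abcg3, Mvp and Cd63 (r 0.990, 0.960 and 0.959), and Tnfrsf1b to Nos3, Tpcn1 and Tek (0.979, 0.972 and 0.972), of which Nos3 and Tek are endothelial genes. Tnfrsf21 was closest to Slc1a1, Usp14 and Chst7 (0.991, 0.989 and 0.987), Slc1a1 being a neuronal glutamate transporter. Tnfrsf25 was closest to Rnf31, Nebl and Pitpnm2 (0.957, 0.925 and 0.924). Without the 2 rats farthest from the median of Tnfrsf25, r was 0.808, 0.656 and 0.762 for these genes. Rnf31 encodes a subunit of the linear ubiquitin ligase that acts at TNF receptors. Tnfrsf4 was closest to Hpdl, Cyp4f6 and Sppl2b (0.954, 0.928 and 0.901), and Tnfrsf14 to Sin3b, RT1-CE11 and Man1a1 (0.904, 0.886 and 0.844). Tnfrsf19 was closest to the growth factor gene Fgf2 (0.943), then to Gpam and Kdm3a (0.937 and 0.924). Tnfrsf12a was closest to Acan, Poc5 and Lhx9 (0.975, 0.963 and 0.955), and Tnfrsf11b to Tmem110, Ms4a6bl and Fkbp7 (0.915, 0.911 and 0.908).

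The genes around the receptors were followed in 7 lists of 104 genes in all, 71 of them tested. In these lists 15 genes rose, 12 fell and 44 did not pass, which is 38.0% called, below the 47.1% of all genes tested. The median log2 fold change was 0.01, against 0.02 over all genes. Adjusted p-values below are from edgeR's quasi-likelihood test with Benjamini-Hochberg adjustment over all 12355 genes. The lists were written with earlier results of these data known, and apart from ligands their genes are mostly named for the smallest p. These p-values therefore describe the genes and are not independent evidence.

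Of the family's ligands, 1 of 8 tested rose, 0 fell and 7 did not pass, and 7 more were too low to test. Tnf itself had 1 to 11 counts in ibudilast rats and 1 to 5 counts in untreated rats, and Lta, lymphotoxin alpha, 1 to 7 and 1 to 4 counts. Ltb, lymphotoxin beta, was at 3.06 ± 1.59 CPM with ibudilast and 1.65 ± 0.348 CPM without (log2 fold change 0.89 ± 0.33, adjusted p = 0.0481). That call did not hold without untreated replicate 1, 2, 3 or 4 or without ibudilast replicate 1, 3, 4 or 5, with adjusted p of 0.0605 to 0.125 and a lowest log2 fold change of 0.51, reached without ibudilast replicate 4. Without ibudilast replicate 2 or 4, 1 ligand was lower. The ligand of Tnfrsf25, Tnfsf15, was at −0.67 ± 0.30 (adjusted p = 0.0925) and the ligand of Tnfrsf4, Tnfsf4, at −0.51 ± 0.28 (adjusted p = 0.162). Tnfsf12, which encodes TWEAK, the ligand of Tnfrsf12a, was at 23.0 ± 6.13 CPM with ibudilast and 20.04 ± 3.92 CPM without (adjusted p = 0.390). Tnfsf10, which encodes TRAIL, was at −0.96 ± 0.56 (adjusted p = 0.185). Tnfsf11, which encodes RANKL, had 0 counts in all 10 rats, for which the one-sided floor of 3 counts per library is 0.158 to 0.209 CPM, and Tnfsf14, which encodes LIGHT, had a total of 1 count.

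Of 8 other TNF receptor family genes tested, 2 rose, 0 fell and 6 did not pass, with a median log2 fold change of 0.34. Tnfrsf11a, which encodes RANK, was at 25.9, 29.9, 24.4, 29.8 and 31.7 CPM in ibudilast replicates 1 to 5, against 11.7, 12.2, 14.0, 21.6 and 18.1 CPM in untreated replicates 1 to 5 (log2 fold change 0.87 ± 0.17, adjusted p = 0.00191). The groups did not overlap, and this is the receptor of the ligand that Tnfrsf11b captures. Relt, an orphan receptor of the family, was at 8.46, 10.4, 10.3, 21.9 and 8.62 CPM in ibudilast replicates 1 to 5, against 6.07, 4.11, 6.12, 4.81 and 5.85 CPM in untreated replicates 1 to 5 (1.14 ± 0.27, adjusted p = 0.00554). Ibudilast replicate 4 was far above the rest, and without it the log2 fold change was 0.78, still past the threshold. Tnfrsf18, which encodes the costimulatory receptor GITR, had 4, 1, 0, 0 and 2 counts in ibudilast replicates 1 to 5 and 0 counts in every untreated rat, too few to test.

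Of 10 death domain adaptors and caspases, 2 rose, 1 fell and 7 did not pass. Tradd, the adaptor of TNF receptor 1, was at 6.98 ± 2.91 CPM with ibudilast and 3.78 ± 0.856 CPM without (log2 fold change 0.88 ± 0.27, adjusted p = 0.0190). It was at 0.80 (adjusted p = 0.0541) without untreated replicate 4 and at 0.56 (adjusted p = 0.0263) without ibudilast replicate 4. Ripk1, the kinase that acts beside TRADD, rose by 0.52 ± 0.13 (adjusted p = 0.00757). Cflar, an inhibitor of caspase-8, was at 8.78 ± 0.512 CPM with ibudilast and 17.2 ± 2.35 CPM without (−0.97 ± 0.11, adjusted p = 6.74e-05), with no overlap between the groups. Without untreated replicate 4, 1 gene of the list was higher and 2 were lower.

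TRAF proteins and ubiquitin regulators had the most calls for their number, with 7 of 16 higher, 5 lower and 4 not passing. That is 75% called, against 47.1% of all genes tested, in 1 of 7 lists written with earlier results of these data known. The list's median log2 fold change was 0.21. Cyld, a deubiquitinase that restrains NF-kB, was at 41.2 ± 3.20 CPM with ibudilast and 82.3 ± 6.02 CPM without (−0.9995 ± 0.08, adjusted p = 1.51e-05). Xiap, an inhibitor of caspases, was at 12.03 ± 2.25 CPM and 27.9 ± 2.41 CPM (−1.21 ± 0.13, adjusted p = 5.18e-05). Tank, a TRAF-binding protein, was at −0.70 ± 0.11 (adjusted p = 4.53e-04) and Traf7 at 0.60 ± 0.11 (adjusted p = 0.00103), both log2 fold changes. The groups did not overlap for any of these 4 genes, which were named for the smallest p in the list. Over the whole list the groups did not overlap for 8 of 16 genes, against 33.4% of all genes tested.

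Of 14 TAK1 and NF-kB kinases and subunits, 3 rose, 2 fell and 9 did not pass. Ikbkb, the IKK-beta kinase, rose by 0.52 ± 0.11 and Tab1, an activator of TAK1, by 0.27 ± 0.06, while Tab2, its ubiquitin-binding partner, fell by 0.42 ± 0.07 and the stress kinase Map3k5 by 0.81 ± 0.11 (adjusted p = 0.00247, 0.00425, 9.63e-04 and 2.66e-04). Of 10 NF-kB target genes tested, 0 rose, 3 fell and 7 did not pass. The antioxidant enzyme gene Sod2 fell by 0.47 ± 0.07, the adhesion molecule gene Vcam1 by 0.85 ± 0.13 and the prostaglandin synthase gene Ptgs2 by 1.68 ± 0.36 (adjusted p = 2.89e-04, 4.45e-04 and 0.00360). Endothelial and mural markers (6 of 10 lower, 0 higher) and neuron markers (6 of 8 lower, 0 higher) moved the same way, and their part in these falls was not tested. Of 5 genes of receptor shedding, Adam10, a metalloproteinase, fell by 0.70 ± 0.09 (adjusted p = 1.33e-04) and 4 did not pass. Without ibudilast replicate 4, 3 of the 5 were lower, without untreated replicate 1, 2 were, and without untreated replicate 3, 1 was higher.

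**Figure D5:**
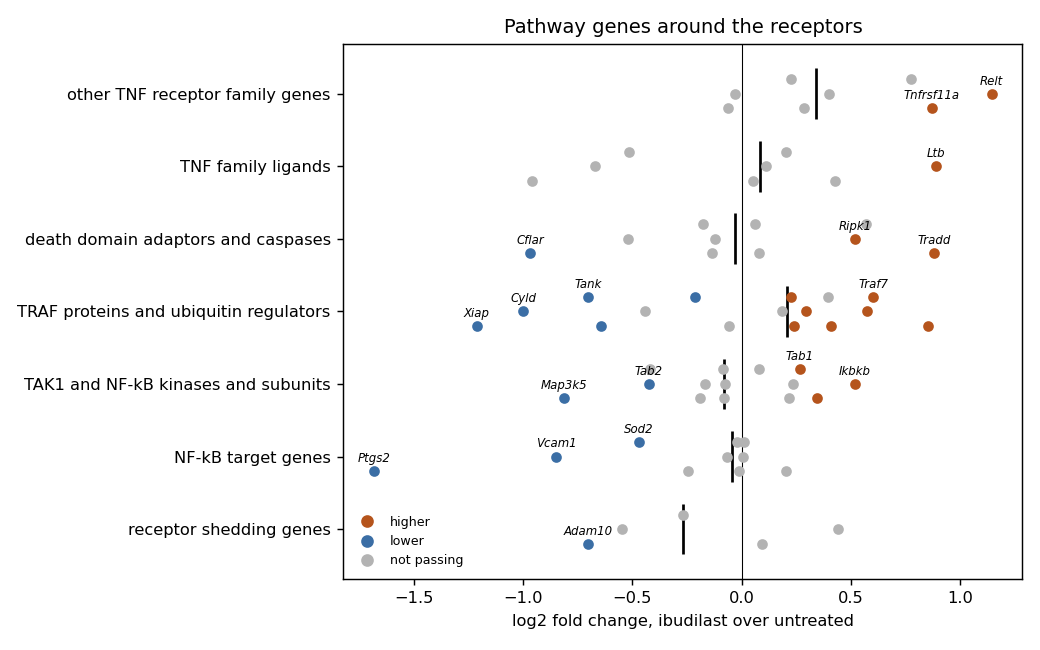
Log2 fold change, ibudilast over untreated (x axis), of each tested gene in the 7 lists (rows), coloured by whether it passed higher, passed lower or did not pass. Black bars are list medians, and the labelled genes are those with the smallest p in their list. Calls lie on both sides of 0 in the lists of adaptors, TRAF proteins and kinases.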

How the data were processed

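Left hippocampal RNA of 5 ibudilast and 5 untreated male TgF344-AD rats was measured in 1 library per rat, grouped and numbered by sample title. Per the labels, libraries were strand-specific and made with an mRNA kit. The authors deposited expected counts per gene symbol, not normalized, and a second table of signal, in which counts were divided by TMM-scaled library sizes, as the values show. Tools listed without order in the submitters' processing notes are RSEM 1.2.15, Bowtie2 2.1.0, bcl2fastq and edgeR, with build rn6. Annotation and filters are not given in the sources used here. Values that were not whole made up 12% of the count table, those of Tnfrsf11b, Tnfrsf14 and Tnfrsf21 among them, and all were rounded. Groups were compared by the robust quasi-likelihood test of edgeR 4.0.16 in R 4.3.3, beside limma 3.58.1, after filterByExpr, on TMM-scaled libraries, and p-values were adjusted by Benjamini-Hochberg over all genes. The SE of a log2 fold change was back-calculated, as its absolute value divided by the square root of that test's F statistic. log2 CPM used a prior count of 2. The test was checked on simulated data, where among 12297 genes it called 69 of 99 given a log2 change of 1 and 18 of 99 given a change of 0.5. Of the 12099 genes given no change it called 7. Far fewer genes changed there than the 47.1% called in the data, so these shares do not give the power of this contrast.

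Members and lists were chosen with earlier results of these data known. Named genes are the members, annotated neighbours within 5 kb, up to 4 genes of smallest p per list, the members' ligands and the 3 genes most alike. Of the authors' signal values 100% were whole reads within 0.01, and edgeR on those reads called 5817 genes, as on the counts. Libraries within a group all differed by more than sampling noise (lowest chi-square per gene 11.6). Rats are separate animals per the design text. Alternatives were RLE factors, library size alone, DESeq2 1.42.0, limma-trend on log2 of the signal plus a pseudocount of 1, other filters, a replicate block and leaving out libraries. Adjoining genes and start regions come from RefSeq (GRCr8), matched by symbol, while the counts were made on rn6.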

Additional observations from a re-analysis of the deposited data

Results flagged for a closer look

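Each group of 5 rats was a set, for the members, their neighbours in the annotation and the ligand and pathway genes named with values. Of the T cell markers, only Cd3d, Cd3g and Cd247 were screened. Sets in which the rats were all equal were left out. Among the 88 sets, 12 held a rat whose gap to the nearest other rat was over 71% of the whole range. A single set of normal values passes that limit about 1 time in 20. These sets share the same 10 rats, and a set in which only 1 rat has counts always passes. The 12 are therefore not compared with chance. Of the 18 sets of members, 1 did: Tnfrsf12a was at 5.37 CPM in ibudilast replicate 4, against 2.89 to 3.28 CPM in the other ibudilast rats. The same rat stood apart in Relt (21.9 CPM, others 8.46 to 10.4), Tradd (12.2 CPM, others 5.24 to 6.08), Tnfsf12 (33.8 CPM, others 19.1 to 21.8) and Sdf4 (90.7 CPM, others 72.4 to 76.4). Untreated replicate 3 stood apart in Sdf4 (81.5 CPM, others 71.3 to 73.4), Vcam1 (79.4 CPM, others 52.6 to 56.4) and Ptgs2 (7.49 CPM, others 20.2 to 24.5). Tnfsf14 was at 0.0697 CPM, a single count, in ibudilast replicate 3 and at 0 in the other ibudilast rats. Cd3d was at 0.354 CPM in ibudilast replicate 4 (others 0 to 0.0579) and at 0.105 CPM in untreated replicate 2 (others 0). Cd3g was at 0.532 CPM in ibudilast replicate 4 and at 0 in the other ibudilast rats. The genes ranked by likeness to a member were not screened.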

How the results depend on the processing

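Tnfrsf25, Tnfrsf14, Tnfrsf19 and Tnfrsf21 were called in the same direction in 20 of 20 alternatives, and Tnfrsf4 in the 19 that tested it, since its mean is under 1 CPM. On the log2(signal + 1) scale of limma-trend, which understates low genes, Tnfrsf4 was at 0.94 and Tnfrsf14 at 0.50. Leaving out each rat gave 2 to 4 members called lower and 3 higher in every case. Tnfrsf1a kept its sign in 17 of 20 alternatives and turned without untreated replicate 1 or 4 or ibudilast replicate 4 (−0.0325, −0.0033 and −0.086, with 0.129 the highest value without a rat), and was never called. Tnfrsf1b passed also when 4 libraries set apart by marker sums were left out (ibudilast 1 and 4, untreated 2 and 3; −0.61), and without untreated replicate 3 and ibudilast replicate 4 (−0.66), a choice made after seeing the data. Over the other settings, the count of ligands higher was 0 with RLE factors, limma-trend, no low-count filter, the replicate block, without those 4 libraries and without those 2, against 1. Leaving out each rat gave 0 to 1 ligands higher and 0 to 1 lower, 1 to 3 adaptors and caspases higher and 1 to 2 lower, and 0 to 1 shedding genes higher and 1 to 3 lower. With the replicate block 1 adaptor gene was higher. Shedding genes had 1 higher with library size alone, without the 4 libraries and without the 2, and 2 lower with RLE factors, DESeq2 and without the 2, and 3 lower without the 4. The causes were not tested. Replicate numbers did not pair the rats (correlations of same-numbered deviations from −0.328 to 0.416), and the block called 2497 genes higher and 2229 lower, against 3004 and 2813. Depth limits Tnfrsf4, Tnf, Lta, Tnfsf11 and Tnfsf14, which had a few counts or none in some libraries.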
